A study of Mus musculus with 4 samples.

Results

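The genes described here are the C-type lectin receptors of myeloid cells, 8 genes taken by symbol (Clec4a1, Clec4a2, Clec4d, Clec4e, Clec4n, Clec5a, Clec7a and Clec12a). They were taken as the rows of the count matrices with these symbols, in barcodes with 1000 to 40000 UMIs (unique molecular identifiers, 1 per captured transcript molecule) and at most 10% mitochondrial UMIs. Of the 31053 genes of the matrices, 7 were members. The eighth, Clec7a, which encodes Dectin-1, had no row under this rule and was not analysed here.

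Bone tissue was profiled in 4 single-cell libraries, 2 from wild-type mice without treatment (Ctrl) and 2 from wild-type mice after hindlimb unloading (HLU), that is 28 days of tail suspension. Tibiae and femurs were rinsed free of marrow before enzymatic dissociation, so the blood cells described are those left in or on the bone. The methods speak of C57BL/6J mice of 8 weeks and the deposited design text of postnatal day 28, so the age is uncertain. With 2 libraries a group, p-values measure only the spread between these libraries, and an exact permutation test of 2 against 2 cannot go below p = 0.333.

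C-type lectin receptors bind sugars and lipids of microbes and of dead or damaged cells. Clec4e (Mincle), Clec4d (MCL) and Clec4n (Dectin-2) have hardly any signalling tail of their own and pair with the Fc receptor gamma chain, encoded by Fcer1g, and Clec5a (MDL-1) pairs with DAP12, encoded by Tyrobp. These adaptors carry activating motifs that recruit the kinase Syk, from which the signal runs over Card9 to NF-kB and cytokine genes. Clec4a2 (DCIR) and Clec12a (MICL) work the other way: they carry an inhibitory motif that recruits phosphatases such as the one encoded by Ptpn6. Clec4a1 is a close relative of Clec4a2 in the same gene cluster.

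All 7 genes lie on mouse chromosome 6 (mm10, GENCODE M21). The 5 Clec4 genes share a stretch of 368 kb: Clec4a1 at chr6:122921848-122934619, Clec4a2 at chr6:123106428-123143999, Clec4n at chr6:123229843-123247021 and Clec4d at chr6:123262111-123275265, all on the plus strand, and Clec4e at chr6:123281789-123289870 on the minus strand. Clec4d and Clec4e thus face each other tail to tail, with 6.52 kb between their 3′ ends and 27.8 kb between their starts. Clec12a lies farther along at chr6:129342691-129365303 on the plus strand and Clec5a by itself at chr6:40574894-40585821 on the minus strand. Clec4a2 overlaps a second gene model on its own strand, Gm44132, and 10.3% of the 31-base words of its transcripts recur in other genes (302 words, 145 of them in Clec4a4), so part of its reads may have been lost or shared. The corresponding shares were 1.97% for Clec4n, 1.10% for Clec12a and 0 for the others.

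The start regions of 4 members are shown because they stand for the different patterns described below: Clec4d and Clec4e, neighbours that were high in mature neutrophils and monocytes, Clec12a, which was highest in neutrophil progenitors, and Clec5a, whose levels in the 3 neutrophil classes overlapped. Each line is the 250 bases before the start site, 5′ to 3′ on the strand of the gene, from RefSeq on GRCm38.p6, for which 6 of the 7 members had an entry (Clec4n had none), and the RefSeq start of Clec12a lies inside the longer GENCODE gene. Capitals mark matches on either strand to the letters GAGGAAG (a PU.1 motif), TTNNGNAA (a relaxed C/EBP motif) or TGANTCA (a relaxed AP-1 motif, with any base at its centre).
Clec4d, plus strand, chr6:123261857-123262106: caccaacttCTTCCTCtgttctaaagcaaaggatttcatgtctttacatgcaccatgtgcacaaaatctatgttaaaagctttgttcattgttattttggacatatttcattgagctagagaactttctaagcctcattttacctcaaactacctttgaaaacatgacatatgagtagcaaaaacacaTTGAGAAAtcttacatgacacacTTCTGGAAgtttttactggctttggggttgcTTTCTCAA
Clec4e, minus strand, chr6:123289872-123290121: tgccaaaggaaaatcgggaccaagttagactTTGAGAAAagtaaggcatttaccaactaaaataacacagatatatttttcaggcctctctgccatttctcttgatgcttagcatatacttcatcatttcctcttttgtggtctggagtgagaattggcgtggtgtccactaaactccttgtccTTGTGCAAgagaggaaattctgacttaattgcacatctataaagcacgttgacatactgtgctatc
Clec12a, plus strand, chr6:129349994-129350243: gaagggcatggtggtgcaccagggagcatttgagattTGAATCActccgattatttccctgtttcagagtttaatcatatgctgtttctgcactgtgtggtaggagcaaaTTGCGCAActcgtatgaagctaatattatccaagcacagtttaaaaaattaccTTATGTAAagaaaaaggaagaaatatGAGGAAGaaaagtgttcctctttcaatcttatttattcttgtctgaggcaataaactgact
Clec5a, minus strand, chr6:40585806-40586055: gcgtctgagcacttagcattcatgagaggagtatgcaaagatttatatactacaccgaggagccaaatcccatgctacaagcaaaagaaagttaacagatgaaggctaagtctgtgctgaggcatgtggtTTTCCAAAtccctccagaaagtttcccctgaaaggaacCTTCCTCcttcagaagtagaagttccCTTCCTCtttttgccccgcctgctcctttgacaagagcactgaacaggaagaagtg
Clec4d held 3 C/EBP matches and a PU.1 match, Clec4e 2 C/EBP matches, Clec12a 2 C/EBP matches, a PU.1 match and an AP-1 match, and Clec5a 2 PU.1 matches and a C/EBP match. The palindrome TTGCGCAA of Clec12a lies 140 to 133 bases before its start. Such letters also occur in the 250 bases before other starts, the C/EBP letters most often. Of 27025 such regions 10.4% held the PU.1 letters, 36.9% the C/EBP letters and 6.87% the AP-1 letters. Whether the matches bear on the levels was not tested, so they are descriptions of the sequence only.

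The files held 10000 to 10003 barcodes a library with 47819046 to 99849070 UMIs, HLU replicate 2 being the deepest, and 7340 to 9485 barcodes passed the filter. After 431 to 720 putative doublets a library were removed, 30119 cells remained, with medians of 3751.5 to 6162 UMIs a library. Libraries shared 13 to 21 barcodes a pair, at most 0.275% of the smaller one, and the closest pair, the Ctrl libraries, still differed by a chi-squared of 79.9 per degree of freedom. Clustering without any Clec gene gave 30 clusters, 27 of which were named from marker genes. HLU replicate 2 stood apart: in its stage II neutrophils the summed level of 8 stage I markers was 38941 CPM (UMIs per 1000000 UMIs of the class) against 16728 to 19162 in the other libraries, and that of 9 stage II markers was 19642 against 30180 to 34937. In its neutrophil progenitors 8 monocyte markers summed to 7958 CPM against 1494 to 2156 CPM in the other libraries. In its stage I neutrophils they summed to 4088 CPM against 783 to 1248 CPM. Monocytes themselves held 4588 to 6129 CPM of these markers. Mesenchymal and bone lineage markers, 12 genes, summed to 1287 and 1423 CPM in Ctrl stage II neutrophils and to 42.5 and 8.78 CPM in those of HLU replicates 1 and 2, while bone lineage cells themselves numbered 3758 and 2581 under Ctrl but 189 and 238 under HLU.

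A set of 5 classes of myeloid cells were compared, named by likeness to the marker lists: neutrophil progenitors (1975 cells with primary granule genes such as Elane and Mpo), stage I neutrophils (4089 immature cells with secondary granule genes such as Ltf and Camp), stage II neutrophils (9673 mature cells with Cxcr2 and Retnlg), monocytes (2355 cells) and dendritic cells (126 cells led by Ccl22, H2-Aa and Ccr7, 13, 24, 23 and 66 by library). All levels are UMIs of the gene per 1000000 UMIs of the class in a library (CPM), and each is compared across classes, not with that of another gene. A named class of 76 macrophages (4, 12, 1 and 59 by library) was left out. Its means of Clec4d (1258 ± 451 CPM, SD, n = 4) and Clec4e (1131 ± 683 CPM, SD, n = 4) lay above those of monocytes. For Clec4a1 (148 ± 225 CPM) and Clec4n (307 ± 367 CPM) it came after monocytes. B cells are set beside these classes as a reference for free RNA. They ranked last of the 11 named classes for Clec4d (33.6 ± 9.48 CPM, SD, n = 4) and Clec4e (19.5 ± 5.33 CPM, SD, n = 4). Basophils and mast cells held 181 ± 33.2 CPM of Clec4d, above the means of stage I neutrophils, progenitors and dendritic cells. Their Clec4e (81.2 ± 17.2 CPM) lay below all 5 classes. Whether the UMIs of B cells, basophils and mast cells are free RNA or their own transcripts was not tested.

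The 7 receptors fell into 3 patterns. Among the 5 classes compared Clec4a1 and Clec4n were highest in monocytes and low in neutrophils of every stage. An unnamed cluster described below, however, held more Clec4n than monocytes in 4 of 4 libraries and little Clec4a1. Clec4d and Clec4e were high in monocytes and in mature neutrophils alike and lower in the stages before, Clec4e less so. Clec12a fell stepwise along the neutrophil lineage, and Clec4a2 and Clec5a were spread over the neutrophil stages and monocytes and scarce in dendritic cells.

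**Figure D1:**
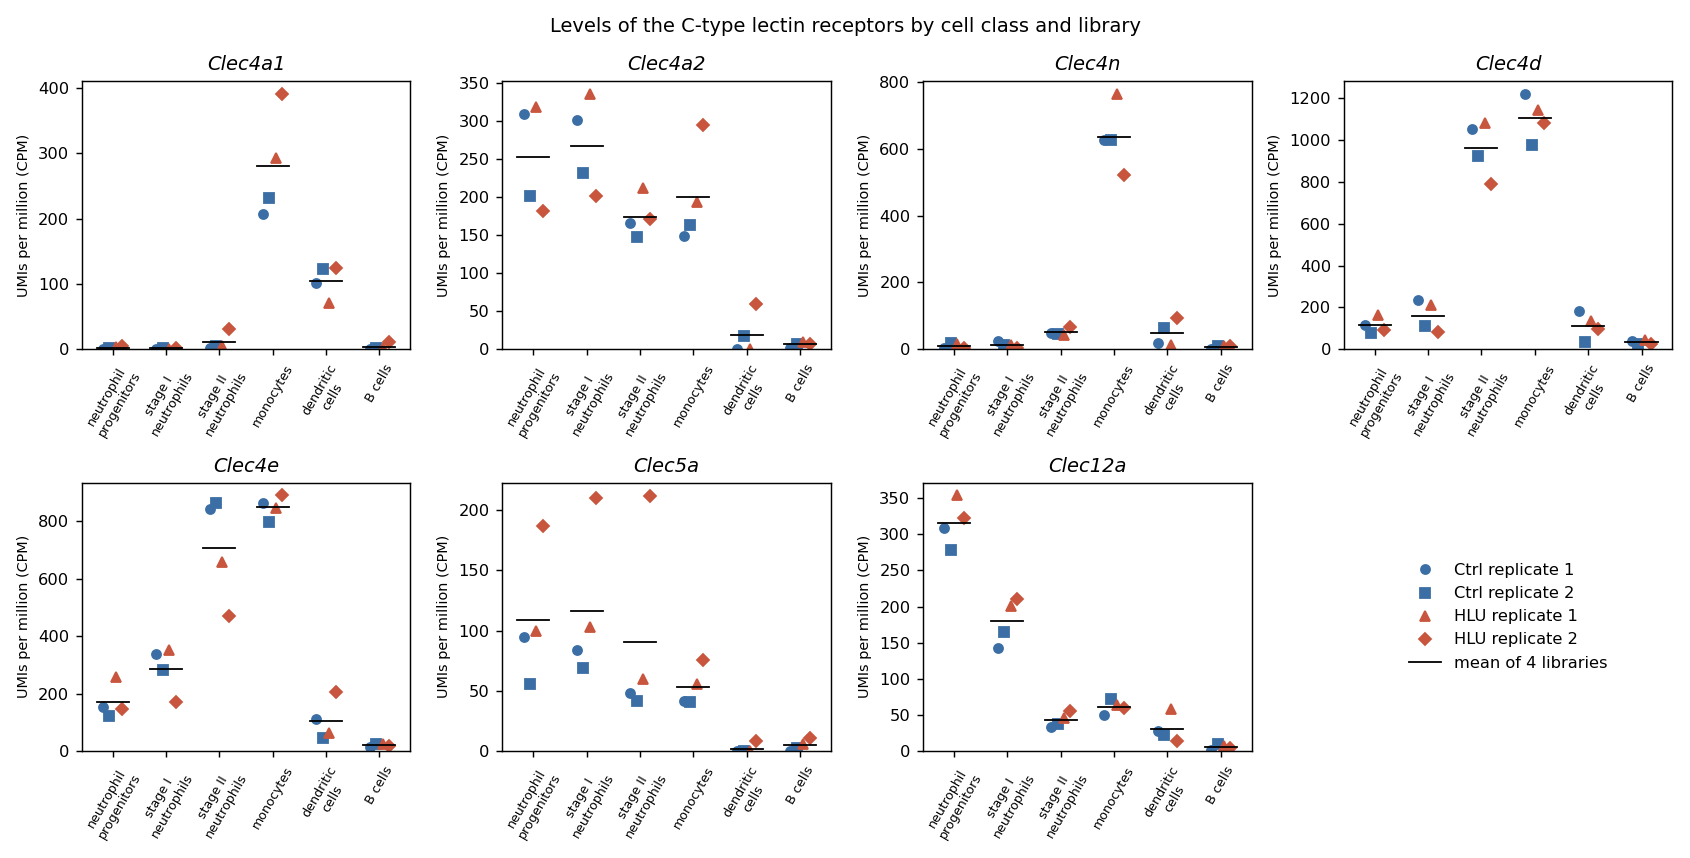
Level of each receptor (vertical axis, CPM, linear from 0) in 5 myeloid classes and B cells (horizontal axis), with 1 point per library (circles and squares Ctrl, triangles and diamonds HLU) and a bar at the mean of 4 libraries. Clec4a1 and Clec4n peak in monocytes, Clec4d and Clec4e in stage II neutrophils and monocytes, and Clec12a in neutrophil progenitors, and the diamonds of HLU replicate 2 stand above the other libraries for Clec5a in all 3 neutrophil classes.

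Clec4n, the Dectin-2 gene, stood at 626 and 627 CPM in the Ctrl monocytes and at 765 and 523 CPM in the HLU monocytes, a mean of 635 ± 99.2 CPM (SD, n = 4). In stage II neutrophils the libraries lay between 44.0 and 67.0 CPM, so monocytes were 7.81 to 17.4 times higher within each of the 4 libraries. The size hung on the clustering: the log2 ratio of the mean CPM was 3.63, and 1.07 at a coarser resolution of 0.5, where 1327 of the 1335 cells of an unnamed cluster rich in Clec4n (99.4%) were counted as stage II neutrophils. Below monocytes the order ran over stage II neutrophils, dendritic cells (47.3 ± 38.5 CPM, SD, n = 4), stage I neutrophils (13.6 ± 9.05 CPM, SD, n = 4) and progenitors (9.79 ± 8.03 CPM, SD, n = 4), and each of these neighbours overlapped with the next. B cells held 1.58 to 9.73 CPM, a range that the 2 youngest neutrophil classes overlapped.

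Clec4a1 was measured at 207 and 231 CPM in Ctrl monocytes and at 292 and 391 CPM in HLU monocytes. Its mean of 280.3 ± 81.8 CPM (SD, n = 4) was 2.67 times that of dendritic cells, which held 101, 122, 71.4 and 125 CPM in Ctrl replicates 1 and 2 and HLU replicates 1 and 2, and the ranges of the 2 classes did not overlap. Clec4a1 was the receptor for which dendritic cells came second among the 5 classes compared. Neutrophils of all stages held at most 5.43 CPM in 3 libraries, near the 0 to 2.49 CPM of B cells there, whereas HLU replicate 2 gave 30.5 CPM in stage II neutrophils and 11.4 CPM in B cells.

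Clec4d, which encodes MCL, rose late in the neutrophil lineage. Its levels in stage II neutrophils were 1052 and 922 CPM in the Ctrl libraries and 1081 and 791 CPM in the HLU libraries, 4.47 to 9.49 times those of stage I neutrophils within each library. Monocytes, at 1222, 974, 1144 and 1083 CPM in the same order of libraries, overlapped with stage II neutrophils, although they were higher in 4 of 4 libraries (1.06 to 1.37 times), an order that turned at clustering resolutions of 0.5 and 2. Stage I neutrophils (160.4 ± 75.2 CPM, SD, n = 4), progenitors (114 ± 37.6 CPM, SD, n = 4) and dendritic cells (113 ± 61.9 CPM, SD, n = 4) overlapped with each other and lay below both.

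Its neighbour Clec4e, the Mincle gene, had the same order of classes. Ctrl stage II neutrophils held 843 and 866 CPM and HLU ones 657 and 471 CPM, against 866, 798, 848 and 891 CPM in monocytes, and the 2 classes overlapped. Stage I neutrophils held 338, 281, 351 and 171 CPM, 1.17 to 2.33 times the progenitors in each library. By the means this step was 1.69-fold, against 1.40-fold for Clec4d, and for both genes the ranges overlapped. The later step was smaller than that of Clec4d. Stage II neutrophils held only 1.87 to 3.08 times stage I, by the means 2.48-fold against 5.99-fold for Clec4d. Dendritic cells held 45.3 to 205 CPM on 10 to 100 UMIs, so their place below the progenitors lay within the spread.

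Clec12a, which encodes the inhibitory receptor MICL, went the opposite way. Neutrophil progenitors held 309 and 278 CPM in the Ctrl libraries and 354 and 322 CPM in the HLU libraries, stage I neutrophils 143, 164, 201 and 211 CPM, and stage II neutrophils 32.6, 37.2, 45.8 and 55.3 CPM. The 3 ranges did not overlap, and the step from stage I to stage II was 3.82-fold to 4.42-fold down in every library. Monocytes, at 60.9 ± 8.82 CPM (SD, n = 4), overlapped with stage II neutrophils (log2 ratio of the mean CPM 0.51, and 1.23 at a clustering resolution of 2) and these with dendritic cells, in which only 3 to 13 UMIs a library were counted.

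Clec4a2, which encodes the inhibitory receptor DCIR, was present at each neutrophil stage and in monocytes. Stage I neutrophils held 302, 232, 336 and 201 CPM and stage II neutrophils 167, 148, 212 and 172 CPM, lower in 4 of 4 libraries, although the 2 ranges overlapped. Progenitors (253 ± 71.0 CPM, SD, n = 4) and monocytes (200.4 ± 65.7 CPM, SD, n = 4) overlapped with both. In dendritic cells 0, 4, 0 and 29 UMIs were counted, where a count of 0 allows up to 27.5 CPM in Ctrl replicate 1 and 13.4 CPM in HLU replicate 1.

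Clec5a, the DAP12 partner, was measured at 94.7 and 55.3 CPM in Ctrl progenitors, at 83.9 and 68.9 CPM in Ctrl stage I and at 48.0 and 41.7 CPM in Ctrl stage II neutrophils. HLU replicate 1 lay close to these, with 99.3, 103 and 59.9 CPM. HLU replicate 2 held 187, 210.4 and 212 CPM, the highest value in each class, and in it alone the level did not drop from stage I to stage II. Monocytes held 41.9, 40.9, 55.7 and 75.3 CPM, and dendritic cells 4 UMIs, all of them in HLU replicate 2.

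Within classes, clusters held different levels. Among stage II neutrophils, cells led by Ccrl2 and Il1rn (2748 cells) held the most Clec4d, 1669.9 ± 342 CPM (SD, n = 4), followed by those led by Stfa2 and Cxcr2 (1161.6 ± 213 CPM), by Retnlg and Ly6g (764 ± 136 CPM) and by Mmp9 and Ifitm6 (414 ± 86.8 CPM). Clec4e had the same order, from 1190.5 ± 242 to 413 ± 83.3 CPM, and Clec12a the reverse, from 12.6 ± 5.28 to 91.1 ± 20.1 CPM. Clec4n was highest in the Ccrl2 and Il1rn cells, at 120.2, 96.4, 172 and 226 CPM against 7.35 to 51.0 CPM in the other 3 large clusters. Stage II neutrophils with interferon-induced genes numbered only 73 and gave no steady values.

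**Figure D2:**
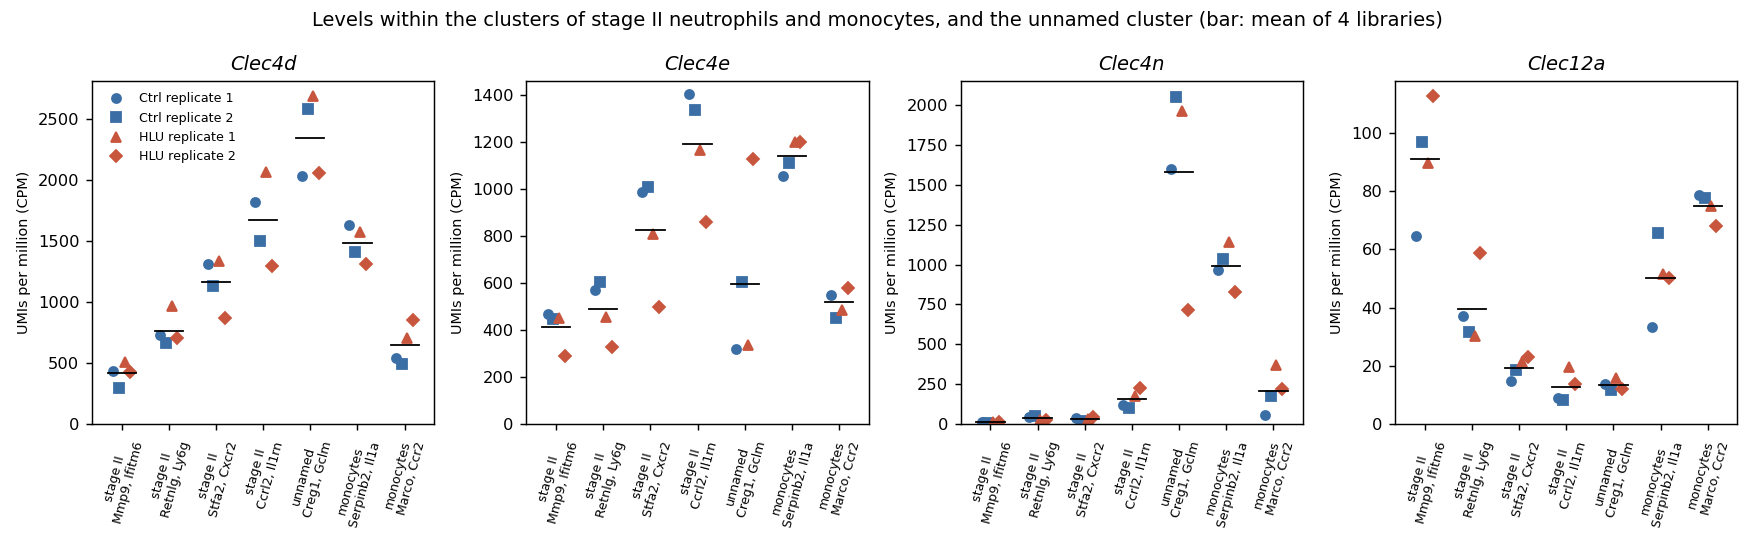
Levels of Clec4d, Clec4e, Clec4n and Clec12a (vertical axes, CPM, linear from 0) in the 4 large clusters of stage II neutrophils, the unnamed cluster led by Creg1 and the 2 clusters of monocytes (horizontal axes, with 2 leading genes each), with 1 point per library and a bar at the mean of 4. From the Mmp9 to the Ccrl2 cluster Clec4d and Clec4e climb while Clec12a declines, and the Creg1 cluster holds most Clec4n in 3 of 4 libraries.

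The 2 clusters of monocytes also differed. Those led by Serpinb2, Cxcl3 and Il1a (1437 cells) held 963, 1034, 1144 and 824 CPM of Clec4n, and those led by Marco, Ms4a6c and Ccr2 (918 cells) 54.0, 173, 370.1 and 217 CPM, so the former were higher in 4 of 4 libraries. Clec4d and Clec4e were 2.30 and 2.21 times higher in the Serpinb2 cluster by their means, and Clec4a1 1.97 times, each again in 4 of 4 libraries. Clec12a was lower there in 4 of 4 libraries, with 50.2 ± 13.3 against 74.8 ± 4.68 CPM (SD, n = 4).

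A cluster of 1335 cells led by Creg1, Pdcd1lg2 and Gclm stayed unnamed, as fewer than 3 markers of any class were raised in it. It held 1598 and 2050 CPM of Clec4n in the Ctrl libraries and 1961 and 713 CPM in the HLU libraries, above both monocyte clusters in 3 libraries and below the Serpinb2 cluster in HLU replicate 2, with Clec4d at 2340 ± 344 CPM (SD, n = 4). Clec4a1, by contrast, lay at 0.767, 6.44, 2.03 and 52.0 CPM, against 207 to 391 CPM in monocytes.

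The share of cells with a UMI was compared at equal depth. Each cell was thinned to 2000 UMIs, which left out 63 monocytes but 2250 of the stage II neutrophils (687, 443, 953 and 167 by library), whose median depth was only 2050 to 4374 UMIs. Clec4d was found in 74.9% ± 2.78 (SD, n = 4) of stage II neutrophils and in 77.7% ± 4.89 of monocytes, Clec4e in 61.5% ± 6.91 and 63.6% ± 5.76. In stage I neutrophils the shares were 21.4% ± 5.23 for Clec4d and 41.9% ± 9.19 for Clec4e, in progenitors 16.3% ± 4.60 and 24.7% ± 8.33. In B cells, with median depths of 2435 to 3429 UMIs, the shares were 4.87% ± 2.22 and 4.35% ± 1.30. Without thinning the shares in stage II neutrophils and monocytes were 87.9% and 91.8% for Clec4d and 76.8% and 85.5% for Clec4e. Those in stage I neutrophils and progenitors, which were sequenced deeper than stage II neutrophils, were 47.4% and 46.9% for Clec4d and 76.6% and 65.8% for Clec4e.

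Clec4n was detected in 34.0% of thinned Ctrl replicate 1 monocytes (71 of 209 cells, exact 95% interval 27.6% to 40.8%), in 34.6%, 43.4% and 52.1% in the next 3 libraries, and in 4.63% to 9.39% of stage II neutrophils. Clec4a1 had a UMI in 28.2% to 52.3% of monocytes. Clec12a was found in 41.1% ± 4.21 of progenitors, 23.5% ± 6.63 of stage I and 6.89% ± 1.16 of stage II neutrophils (SD, n = 4), against 1.25% ± 0.520 of B cells. Without thinning these were 83.9%, 56.0%, 10.9% and 2.13%. The intervals cover counting error only.

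**Figure D3:**
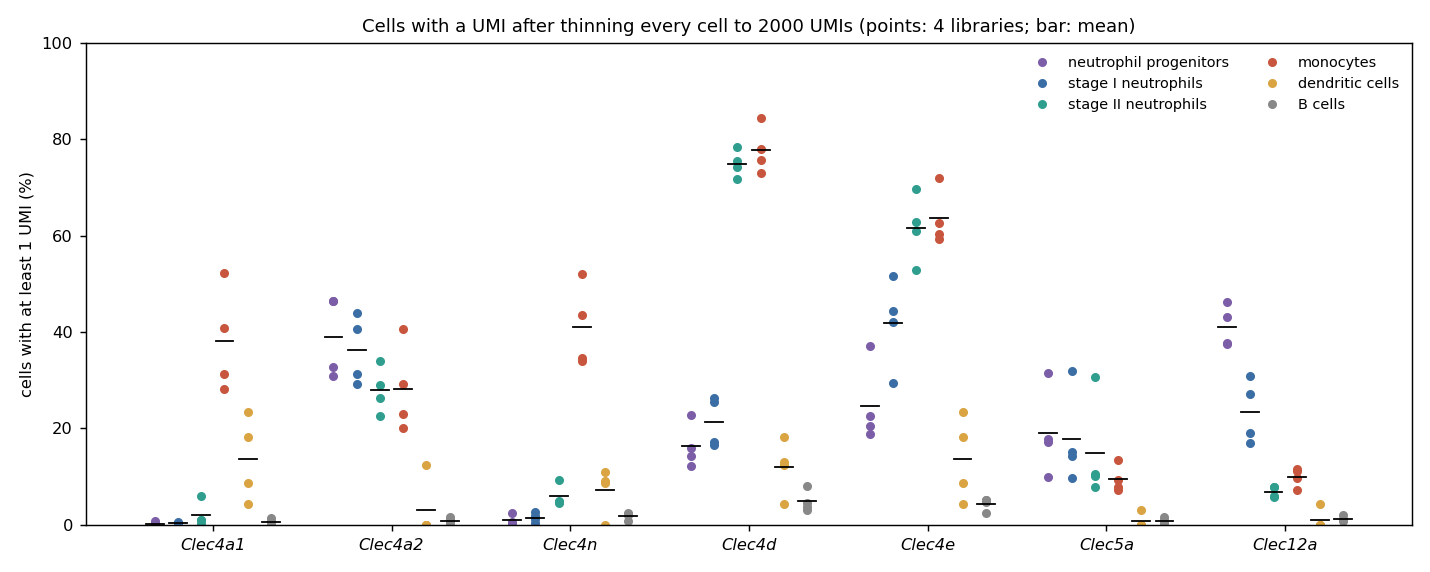
Percentage of cells with at least 1 UMI (vertical axis) of each receptor (horizontal axis) after every cell was thinned to 2000 UMIs, with points for the 4 libraries and a bar at their mean, coloured by class. Clec4d and Clec4e reach over 50% in stage II neutrophils and monocytes, and B cells stay under 10% for all 7 receptors.

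Over the 20 sums (5 classes in 4 libraries), Clec4d and Clec4e ran together with a Pearson correlation of 0.91 on the log2(CPM + 1) scale, Clec4a2 and Clec5a with 0.90, and Clec4a1 and Clec4n with 0.76. Clec4a2 and Clec5a were both scarce in dendritic cells (19.4 ± 28.0 and 2.05 ± 4.09 CPM, SD, n = 4). How far these sums carried their correlation was not tested. In progenitors and stage I neutrophils HLU replicate 2 stood at 0.57 and 0.60 times the highest other library for Clec4a2. For Clec5a it stood at 1.88 and 2.05 times. Clec12a and Clec4a1 were opposed (-0.63). Among 4967 other genes with a mean of at least 20 CPM, those most like Clec4d were Fth1 (0.94), Cxcl2 (0.93) and Klra2 (0.92), and those most like Clec4e were Phlda1 (0.96), Pttg1ip (0.94) and Ccl3 (0.93). Clec4n came closest to Psap (0.92), Metrnl (0.91) and Srxn1 (0.90), and Clec4a1 to Pisd (0.94), Myo1c (0.94) and Dusp3 (0.93). Clec12a ran with Fcnb (0.95), Rrm2 (0.93) and Agpat2 (0.92), Clec4a2 with Dok3 (0.96), Atp8b4 (0.96) and Rnf141 (0.95), and Clec5a with Hp (0.98), Igsf6 (0.97) and Prdx5 (0.96). Sums of 1 library share its depth and its mouse, so these values are descriptions.

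In neutrophils and monocytes, cells with a UMI of Clec4d more often had one of Clec4e than cells without. The gap was wider in monocytes and the earlier neutrophil classes than in stage II neutrophils. Both genes were found in 348 of 733 and 740 of 1469 thinned Ctrl stage II neutrophils, and in 1039 of 2174 and 1256 of 3047 HLU ones. In stage I neutrophils both were found in 83 of 616 and 82 of 810 Ctrl cells, and in 185 of 1215 and 79 of 1314 HLU cells. Among thinned Ctrl monocytes with a UMI of Clec4d, 67.7% and 69.9% also had one of Clec4e, against 33.3% and 42.7% of those without. In the HLU libraries the shares were 69.6% against 28.2% and 74.8% against 56.9%. In stage II neutrophils the 2 shares lay closer, at 64.0% against 59.3% and 70.3% against 67.8% in the Ctrl libraries and at 61.0% against 60.9% and 54.6% against 47.1% in the HLU libraries. Stage I neutrophils gave 52.9% against 41.4% and 59.0% against 38.6% in Ctrl. In HLU they gave 57.8% against 49.4% and 36.2% against 28.2%. These shares pool the clusters of a class, which differed in both genes in monocytes and stage II neutrophils. Clusters of stage I neutrophils differed in Clec4e (177 ± 60.4 against 327 ± 73.4 CPM, SD, n = 4). Those of progenitors differed in Clec4d (70.0 ± 36.9 against 165 ± 43.4 CPM, SD, n = 4). The part of this mixing was not tested.

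The adaptors of these receptors were present in all 5 classes. Fcer1g stood at 2670 ± 662 CPM in stage II neutrophils, 2807 ± 628 CPM in monocytes and 817 ± 166 CPM in dendritic cells (SD, n = 4). Tyrobp rose along the neutrophil lineage, from 1384 ± 285 CPM in progenitors over 2627 ± 262 to 3737 ± 207 CPM in stage II neutrophils (SD, n = 4), with ranges that did not overlap. Syk went from 70.1 ± 23.9 CPM in progenitors over 107 ± 17.6 to 294 ± 38.5 CPM (SD, n = 4), and the first 2 of these overlapped. Card9 ran the other way, from 27.9 ± 4.65 CPM in progenitors to 12.6 ± 4.26 CPM in stage II neutrophils (SD, n = 4), and Ptpn6 lay between 135 ± 51.1 and 267 ± 119.6 CPM in the neutrophil classes and monocytes.

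Whether unloading changed these receptors was tested on UMIs summed per library and class with edgeR's quasi-likelihood test, with p-values adjusted over all genes tested. No member passed an adjusted p of 0.05 in any class, neither with edgeR nor with DESeq2. The genes called by edgeR made up 0.300% of 9987 tested in neutrophil progenitors, 1.76% of 10006 in stage I neutrophils, 2.74% of 9347 in stage II neutrophils, 0.0664% of 10537 in monocytes and 0.250% of 3199 in dendritic cells. All 7 members were tested in the first 4 classes and 4 in dendritic cells, where Clec4a2, Clec5a and Clec12a had too few UMIs. At an unadjusted p under 0.05 stood 2 members in stage I neutrophils (Clec5a and Clec4n), 1 in stage II neutrophils (Clec5a) and 0 elsewhere. Over all genes, 967 of 10006 in stage I and 1054 of 9347 in stage II neutrophils stood there too (edgeR). Without HLU replicate 1, which leaves HLU replicate 2 as the lone HLU library, 3, 3, 4, 3 and 1 members were called in the 5 classes, where 31.3%, 32.2%, 43.2%, 39.8% and 6.31% of all genes tested were called too, and without each of the other 3 libraries 0 members were. The summed counts alone do not tell fewer cells with a transcript from less of it per cell. The shares of cells with a UMI are given above without a test between the groups.

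**Figure D4:**
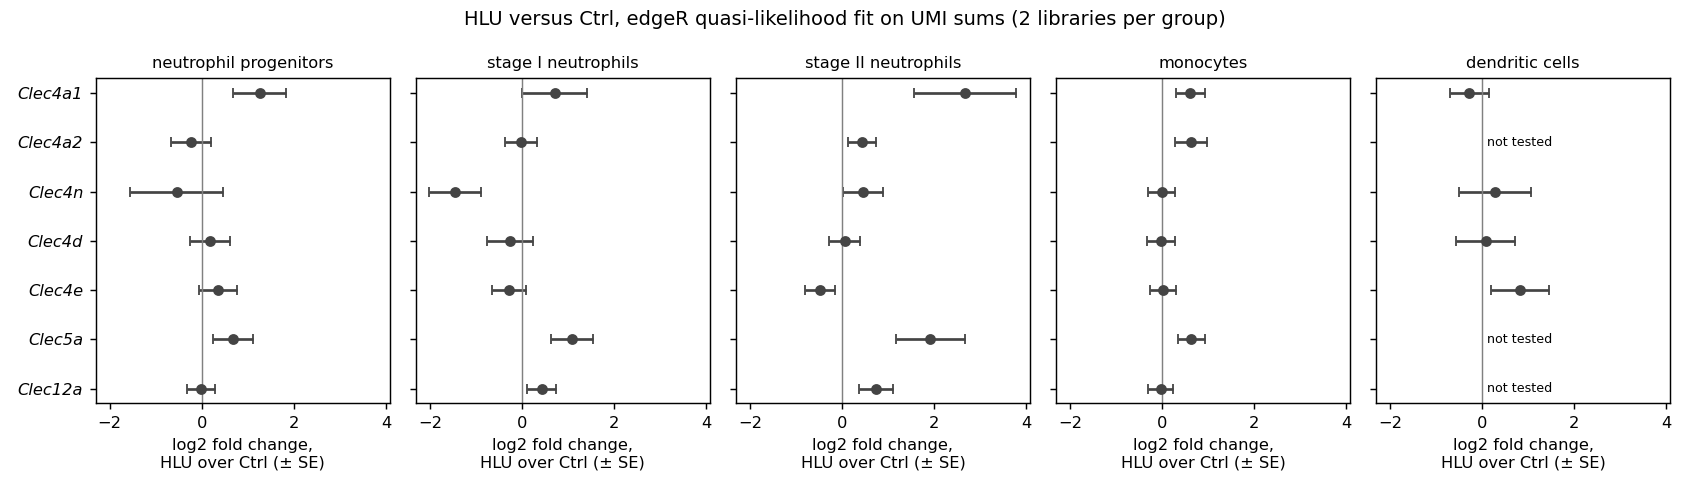
log2 fold change of HLU over Ctrl (horizontal axis, 0 at the grey line) with its standard error for each receptor (vertical axis) in 5 classes, from edgeR's quasi-likelihood fit with 2 libraries per group. None passes an adjusted p of 0.05, and the largest values, those of Clec4a1 and Clec5a in stage II neutrophils, have wide errors.

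Clec5a had the smallest adjusted p of the members, in stage II neutrophils, whereas Clec4n in stage I neutrophils had the smallest unadjusted p (0.0368 against 0.0423 in edgeR's fit) and Clec4a1 in stage II neutrophils the largest fold. In stage II neutrophils its levels were 48.0 and 41.7 CPM in Ctrl and 59.9 and 212 CPM in HLU, so both HLU libraries lay above both Ctrl libraries, with a log2 fold change of 1.92 ± 0.74 (SE, edgeR, adjusted p = 0.423). In stage I neutrophils it was 1.08 ± 0.45 (SE, edgeR, adjusted p = 0.498), in progenitors 0.67 ± 0.43 (SE, edgeR, adjusted p = 0.838) and in monocytes 0.64 ± 0.30 (SE, edgeR, adjusted p = 0.808). The size came from HLU replicate 2, which stood 3.54 times above the highest other library in stage II neutrophils. Without that library the log2 fold change there was 0.33 (edgeR, adjusted p = 0.555), and without HLU replicate 1 it was 2.67 (edgeR, adjusted p = 2e-11). With no filter on low counts Clec5a was called there (2.01, edgeR, adjusted p = 9.86e-05), as was Clec4a1 (2.76, edgeR, adjusted p = 1.34e-06), and so were 6.44% of all genes tested. The raised stage I markers of HLU replicate 2 given above moved with it, as did its raised monocyte markers in the earlier classes. The part of these markers in the result was not tested.

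Clec4a1 also depended on that library. Stage II neutrophils held 1.36 and 5.43 CPM in Ctrl and 5.14 and 30.5 CPM in HLU, a log2 fold change of 2.68 ± 1.11 (SE, edgeR, adjusted p = 0.445) in which the groups overlapped. It was 0.39 without HLU replicate 2 (edgeR, adjusted p = 0.786). In the same class that library held 142 CPM of 7 macrophage markers in sum against 13.6 to 22.9 CPM in the others, and 1257 CPM of 8 monocyte markers against 680 to 848 CPM, and their part in the result was not tested. HLU replicate 2 also had the most Clec4a1 in B cells and in bone lineage cells (48.5 CPM against 0.861 to 2.64 CPM). In monocytes both HLU libraries lay above both Ctrl libraries, with a log2 fold change of 0.61 ± 0.32 (SE, edgeR, adjusted p = 0.808), and Clec4a2 there gave 0.62 ± 0.35 (SE, edgeR, adjusted p = 0.808) from 149 and 164 CPM in Ctrl and 194 and 295 CPM in HLU.

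Clec4n in stage I neutrophils lay at 25.2 and 14.1 CPM in Ctrl and at 11.9 and 3.21 CPM in HLU, with a log2 fold change of -1.45 ± 0.57 (SE, edgeR, adjusted p = 0.481). With no filter on low counts it was called (-1.39, edgeR, adjusted p = 0.0166), as were 4.61% of all genes tested. The class was made up differently in the groups: cells led by Ldhc and Tnfaip6 were 22.3% and 29.0% of it in Ctrl but 16.3% and 1.36% in HLU, and cells led by Ccnb2 and Cdkn3 2.31% and 3.33% against 5.78% and 13.3%. Another cluster of this class, led by Hist1h1b and Ube2c, held 44.5 and 29.7 CPM of Clec4n in Ctrl and 20.3 and 3.15 CPM in HLU. In the largest cluster, led by Ltf, the groups overlapped. How far the make-up of the class bore on the fold change was not tested. In monocytes, where the gene was high, the change was -0.01 ± 0.30 (SE, edgeR, adjusted p = 0.991). Clec12a was higher in both HLU libraries in all 3 neutrophil classes, with log2 fold changes of -0.02 ± 0.30, 0.43 ± 0.31 and 0.73 ± 0.37 (SE) from progenitors to stage II (edgeR, adjusted p = 0.986, 0.668 and 0.503). The first of these was 0.20 without TMM scaling factors.

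Such separations are common in these libraries. HLU and Ctrl libraries did not overlap for 3 of 7 members in progenitors (Clec4a1, Clec5a and Clec12a) against 41.2% of all genes tested, for 3 of 7 in stage I neutrophils (Clec5a, Clec12a and, lower, Clec4n) against 41.1%, for 4 of 7 in stage II neutrophils (Clec4a2, Clec5a, Clec12a and, lower, Clec4e) against 41.2%, for 3 of 7 in monocytes (Clec4a1, Clec4a2 and Clec5a) against 39.3%, and for 0 of 4 in dendritic cells against 37.0%. These shares lie near the background. HLU replicate 2 held the highest level in 18 of the 35 combinations of member and class, HLU replicate 1 in 10, and the Ctrl libraries in 4 and 3. This count was not made over all genes, so it cannot show a trait of these receptors. Of all genes tested in progenitors, 33% were higher in both HLU libraries than in both Ctrl libraries, and 8.21% lower. These shares were 22.4% and 18.7% in stage I neutrophils, 23.5% and 15.9% in monocytes and 22.8% and 14.2% in dendritic cells. In stage II neutrophils the order was the opposite, 17.6% and 23.7%. Clec5a in dendritic cells entered the count on 4 UMIs.

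Clec4d and Clec4e were both abundant, and neither was called in any class. In monocytes the log2 fold changes were -0.03 ± 0.30 for Clec4d (SE, edgeR, adjusted p = 0.982) and 0.03 ± 0.29 for Clec4e (SE, edgeR, adjusted p = 0.982). In stage II neutrophils Clec4d gave 0.06 ± 0.34 (SE, edgeR, adjusted p = 0.954) and Clec4e -0.47 ± 0.33 (SE, edgeR, adjusted p = 0.593), and for Clec4e the HLU range (471 to 657 CPM) lay under the Ctrl range (843 to 866 CPM). The Ccrl2 and Il1rn cells, richest in Clec4e, made up 34.7% and 33.8% of this class in Ctrl and 23.3% and 27.3% in HLU, and the Mmp9 and Ifitm6 cells, poorest in it among the 4 large clusters, 16.0% and 14.5% against 21.8% and 20.2%. Within the Ccrl2 and Il1rn cells Clec4e lay at 1402 and 1335 CPM in Ctrl and at 1165 and 859 CPM in HLU, without overlap, and within the Mmp9 and Ifitm6 cells at 468 and 445 against 449 and 288 CPM, with overlap. How far the make-up of the class bore on the change in Clec4e was not tested.

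The ratio of the 2 neighbours, which depth does not touch, was compared after their values had been seen. Clec4e made up 44.5% and 48.4% of the Clec4d and Clec4e UMIs of Ctrl stage II neutrophils and 37.8% and 37.3% of those of HLU ones, on 3108 to 7345 Clec4e UMIs a library, a difference of -8.91 percentage points (two-sided exact permutation test, p = 0.333, the smallest that 2 libraries against 2 allow). The HLU libraries were below the Ctrl libraries in each of the 4 large clusters of stage II neutrophils, with 32.1% and 31.7% against 44.0% and 47.8% in the Retnlg and Ly6g cluster, and the groups did not overlap in any of the 4. These clusters come from the same 4 libraries, so they repeat 1 comparison, and how often other pairs of genes separate in this way was not tested. The same order was seen in the Marco and Ccr2 monocytes (40.9% and 40.5% against 50.5% and 48.1%). It was not seen in the Serpinb2 monocytes (43.3% and 47.8% in HLU against 39.3% and 44.0% in Ctrl), in monocytes as a whole (42.6% and 45.1% against 41.5% and 45.0%) or in stage I neutrophils (62.2% and 67.3% against 59.0% and 72.0%). In neutrophil progenitors the order was the opposite, with 60.8% and 60.9% in HLU above 56.4% and 60.2% in Ctrl, a difference of 2.56 percentage points (two-sided exact permutation test, p = 0.333, again the smallest possible). Across classes Clec4e took 65.1% ± 5.72 of the pair in stage I neutrophils and 43.6% ± 1.84 in monocytes (SD, n = 4).

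**Figure D5:**
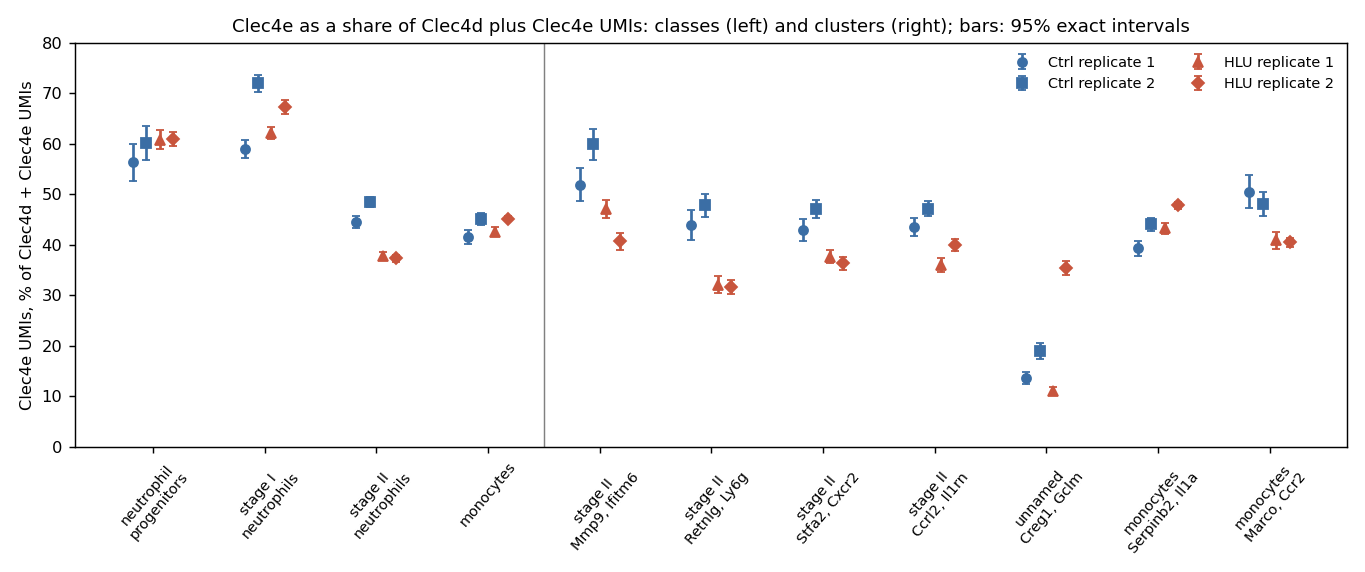
Clec4e UMIs as a percentage of Clec4d plus Clec4e UMIs (vertical axis) in 4 classes (left of the line) and in the clusters of stage II neutrophils and monocytes and the unnamed cluster (right of the line), with 1 point per library and 95% exact binomial intervals that cover counting error only. In stage II neutrophils and each of their 4 clusters shown the HLU points lie below the Ctrl points, while in monocytes as a whole they overlap.

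The change under unloading was compared directly between monocytes and stage II neutrophils, with the library as a block. Of 11221 genes, 0.0535% had a called difference, and no member did (0 of 7 with edgeR, 0 of 7 with DESeq2, and 0 of 7 at an unadjusted p under 0.05). Over all genes, 902 stood at an unadjusted p under 0.05 (edgeR). The differences, monocytes minus stage II neutrophils on the log2 scale, ran from -1.45 ± 0.92 (SE) for Clec4a1 to 0.61 ± 0.28 (SE) for Clec4e (edgeR, adjusted p = 0.766 and 0.662).

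The signalling partners did not pass either. Of 25 adaptor and signalling genes, 23, 23, 23, 24 and 15 were tested in progenitors, stage I and stage II neutrophils, monocytes and dendritic cells and 0 were called in each with edgeR (2, 2, 2, 2 and 1 at an unadjusted p under 0.05). Over all genes, 453 of 9987, 967 of 10006, 1054 of 9347, 478 of 10537 and 194 of 3199 stood at such a p in these classes. Their median log2 fold changes in these classes were 0.33, 0.31, 0.45, 0.42 and -0.06, where those of all genes were 0.06, 0.00027, 0.03, 0.01 and 0.01. In stage II neutrophils Card9 gave 0.88 ± 0.33 (SE, edgeR, adjusted p = 0.415), Ptpn6 0.94 ± 0.47 (SE, edgeR, adjusted p = 0.502) and Fcer1g 0.67 ± 0.49 (SE, edgeR, adjusted p = 0.607). Syk (0.25 ± 0.31) and Tyrobp (0.25 ± 0.42) overlapped between the groups there.

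Of 31 other C-type lectin genes 12, 14, 14, 18 and 7 were tested in the same order of classes, and 1 was called. Colec12, a collectin-type scavenger receptor, fell by 5.34 on the log2 scale in stage II neutrophils (edgeR, SE 0.88, adjusted p = 0.0423), from 4.61 and 4.07 CPM in Ctrl to 0.210 and 0 CPM in HLU. Bone lineage cells held 82.7 and 89.6 CPM of it in Ctrl and 49.6 and 36.2 CPM in HLU, and the fall of their markers in neutrophil sums given above ran alongside. The part of their RNA in the result was not tested.

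Of 21 cytokine and chemokine targets 13, 14, 17, 18 and 6 were tested. Nos2, the inducible nitric oxide synthase, fell in stage I neutrophils, from 46.9 and 70.3 CPM to 11.6 and 4.14 CPM (log2 fold change -2.97 ± 0.47, SE, edgeR, adjusted p = 0.0318), and in stage II neutrophils, from 105 and 167 CPM to 23.5 and 9.68 CPM (-2.98 ± 0.43, SE, edgeR, adjusted p = 0.0307). Uncalled falls of like size were seen in progenitors (-2.67 ± 0.48, SE, edgeR, adjusted p = 0.144) and monocytes (-2.93 ± 0.99, SE, edgeR, adjusted p = 0.808). Cxcl1, a neutrophil-attracting chemokine, fell in stage I neutrophils from 57.9 and 67.6 CPM to 1.75 and 3.70 CPM (-4.46 ± 0.48, SE, edgeR, adjusted p = 0.00691), and in stage II neutrophils it gave -3.53 ± 0.81 (SE, edgeR, adjusted p = 0.115). It gave -3.52 ± 0.67 in progenitors and -1.14 ± 0.41 in monocytes (SE, edgeR, adjusted p = 0.162 and 0.808). In dendritic cells it went the other way, with 2.42 ± 0.71 (SE, edgeR, adjusted p = 0.661). Both genes were also measured in bone lineage cells, Cxcl1 at 1865 and 2144 CPM in Ctrl and 340 and 11012 CPM in HLU, and Nos2 at 447 and 754 CPM in Ctrl and 31.1 and 876 CPM in HLU. In HLU replicate 2 both thus lay above Ctrl there per UMI of these cells, but the cells were far fewer, as given above. Summed over the bone lineage cells, Cxcl1 had 64969 and 63497 UMIs in Ctrl and 645 and 26127 in HLU. Nos2 had 15581 and 22343 UMIs in Ctrl and 59 and 2078 in HLU. In stage I neutrophils the bone lineage markers summed to 600 and 672 CPM in Ctrl and to 33.1 and 7.10 CPM in HLU. The part of bone lineage RNA in the neutrophil sums was not tested. Il6, Ccl2, Ptgs2 and the rest of the list were not called in any class with edgeR.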

How the data were processed

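Bone cells of 2 Ctrl and 2 HLU libraries were profiled with the 10x 3′ assay (kit v3.1). The authors made the deposited UMI counts per gene and cell with Cell Ranger 6.0.0 on mm10, without normalization, and worked with Seurat 4.1.0. Here, barcodes with 1000 to 40000 UMIs and at most 10% mitochondrial UMIs were kept, and doublets were removed with Scrublet (scanpy 1.11.5) at 0.8% per 1000 cells. Cells were integrated by anchors and clustered in Seurat 5.3.0 (2000 variable genes, 50 components, resolution 1) with all 30 Clec genes left out. A cluster was named from at least 3 markers with a log2 fold of at least 1 in at least 10% of cells and, averaged over its 4 strongest markers, at least 1.5. The cut-offs were picked once the clusters were known, and the names may differ from those of the study.

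Counts were summed per library and class and tested with edgeR 4.0.16 (filterByExpr, TMM factors, quasi-likelihood test, Benjamini-Hochberg adjustment over all genes), with DESeq2 1.42.0 as an alternative. The script was tested on simulated counts that held no outlying library. That test does not cover a spread like that between the HLU libraries. Levels across classes are descriptions without a test. Shares were compared after thinning to 2000 UMIs per cell, and intervals are exact (Clopper-Pearson, 95%) and cover counting error only. The count of 0 is read with a floor of 3 UMIs per library. Likeness is Pearson's r on log2(CPM + 1). The text names all members, the 3 genes most like each, every called gene of the lists and the main adaptors. Members and lists were chosen with earlier results of these data known. The protocol gives 2 mice a group, as many as the libraries, without saying which mouse gave which library.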

Additional observations from a re-analysis of the deposited data

How the results depend on the processing

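No member was called in any class or in the comparison of monocytes with stage II neutrophils under DESeq2, edgeR with RLE factors, no TMM factors (within classes only, chosen after seeing the data), resolution 0.5 or 2, no integration, doublets kept or a limit of 0.2% haemoglobin UMIs. Leaving out 1 library gave 0 to 3 members called in progenitors, 0 to 3 in stage I neutrophils, 0 to 4 in stage II neutrophils, 0 to 3 in monocytes, 0 to 1 in dendritic cells and 0 to 4 in the comparison of the classes, the upper values all without HLU replicate 1, where the lone HLU library was taken to vary like the Ctrl group and 31.3%, 32.2%, 43.2%, 39.8%, 6.31% and 17.7% of all genes tested were called in these comparisons. No filter on low counts gave 1 in stage I and 2 in stage II neutrophils, beside 4.61% and 6.44% of all genes. The fit with the replicate number as a block called 1 member in stage I neutrophils (Clec4n, log2 fold change -1.59, edgeR, adjusted p = 0.00765) and 1 in stage II neutrophils (Clec4a1, 2.497, edgeR, adjusted p = 0.0232) and no other, beside 5.66% and 4.22% of all genes. Same-numbered libraries deviated with correlations of -0.01 to 0.17 in the 5 classes, over 2 pairs, so the numbers were taken as names and not as pairs. Of 39 fold changes of the members, 15 turned direction without HLU replicate 2, 12 without integration, 7 without each of the Ctrl libraries, 6 without HLU replicate 1 and at most 5 under each other alternative, apart from 6 of 32 with no TMM factors. The cause of these changes was not tested.

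Of the log2 ratios of mean CPM of monocytes to stage II neutrophils, Clec4a2 (0.20) ran from -0.0561 without HLU replicate 2 to 0.32 without HLU replicate 1, and Clec4d (0.20) was -0.0435 at resolution 0.5 and -0.10 at resolution 2, so their order of these classes is not fixed. Clec4n stayed higher in monocytes under each alternative run, with 1.07 at resolution 0.5 and 3.06 without integration against 3.63.

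Over all genes, the calls in progenitors, stage I and stage II neutrophils, monocytes and dendritic cells were 30, 176, 256, 7 and 8. They were 128, 226, 405, 95 and 13 with DESeq2, 370, 760, 1062, 410 and 9 with no filter, 120, 566, 394, 30 and 34 with the replicate block, 0, 131, 203, 2 and 8 with no TMM factors, 7, 103, 184, 11 and 1 at resolution 2, 23, 149, 228, 12 and 1 at resolution 0.5, 0, 111, 171, 0 and 8 without integration and 38, 337, 291, 21 and 9 with doublets kept. The comparison of the classes gave 6 calls, 81 with DESeq2, 390 with no filter, 10 at resolution 2 and 9 with doublets kept. Without HLU replicate 1 the counts were 3176, 3234, 4049, 4245 and 243 (2010 for the comparison of the classes), and without HLU replicate 2 122, 414, 708, 275 and 40 (166). Without Ctrl replicate 1 they were 41, 55, 95, 11 and 34 (0), and without Ctrl replicate 2 30, 45, 84, 1 and 38 (0). Dropping the TMM factors moved the median log2 fold change of all genes from 0.06 to 0.29 in progenitors, from 0.03 to -0.10 in stage II neutrophils and from 0.01 to 0.16 in dendritic cells. Dendritic cells, 13 to 66 a library, were the fewest of the 5 classes.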
